A study of Mus musculus with 12 samples.

Results

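The 9 genes Kap, Slco1a1, Slc7a13, Cyp2e1, Cyp7b1, Acsm3, Odc1, Cyp4b1 and Cyp2j13 are androgen-dependent genes of the mouse proximal tubule. They were taken by symbol from a table of 21003 gene symbols measured by RNA sequencing in whole kidneys. The 12 libraries formed 4 groups of 3, all from mice of the outbred ICR strain at 8 weeks of age: busulfan plus L.J., busulfan, L.J. alone, and control. Busulfan, a DNA-crosslinking alkylating agent, was given at a dose the labels do not state. L.J. was given at 10 mg/kg in both groups that received it. The labels do not say what L.J. is, the sample titles write Lu, and the design text speaks of FMT, so its identity is uncertain. The series title poses the question of whether L.J. reverses harm done by busulfan to the kidney. The labels are silent on the sex of the mice and on whether each library is another animal. A p-value here therefore reflects only how much these libraries vary, which may be technical.

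Androgens such as testosterone and dihydrotestosterone are steroid hormones that regulate genes through androgen response elements, DNA sequences that contain a short half-site. The proximal tubule reabsorbs most of the filtered solutes and secretes organic anions, and in mice it is the kidney segment with the clearest sex difference in gene expression. Males express one set of transporters and steroid- and drug-metabolizing enzymes there, females express another, and castration lowers the male set. No hormone level was among the data used here.

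All 9 are protein-coding genes. In the GRCm38.p6 assembly, Kap lies on chromosome 6 from 133849855 to 133853667 and Slco1a1 on the same chromosome from 141907281 to 141946962. Chromosome 4 holds Slc7a13 from 19818727 to 19842213, Cyp2j13 from 96042660 to 96077566 and Cyp4b1 from 115624698 to 115647721. Acsm3 spans 119760883 to 119784896 on chromosome 7, which also carries Cyp2e1 from 140763819 to 140774990. Cyp7b1 lies on chromosome 3 from 18071944 to 18243890 and Odc1 on chromosome 12 from 17544808 to 17551502. The RefSeq promoter table of the same build held 7 of the 9 members, all but Slc7a13 and Cyp7b1. The 250 bases before the annotated start of transcription are shown for Kap, the most abundant member (chr6:133853668-133853917, minus strand), for Acsm3, the member with the widest range between libraries (chr7:119760673-119760922, plus strand), and for Cyp4b1, the one member with an androgen response half-site in this window (chr4:115647722-115647971, minus strand). For Acsm3 the transcript start used by RefSeq for this window lies within the annotated span of the gene. Sequences read 5′ to 3′ on the strand of the gene, and capitals mark a TATAAA box in Kap and the half-site TGTTCT in Cyp4b1.
Kap: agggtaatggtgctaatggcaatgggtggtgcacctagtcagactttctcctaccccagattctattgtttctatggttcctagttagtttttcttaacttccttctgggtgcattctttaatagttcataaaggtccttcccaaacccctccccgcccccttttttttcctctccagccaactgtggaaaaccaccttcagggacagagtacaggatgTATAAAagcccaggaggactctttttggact
Acsm3: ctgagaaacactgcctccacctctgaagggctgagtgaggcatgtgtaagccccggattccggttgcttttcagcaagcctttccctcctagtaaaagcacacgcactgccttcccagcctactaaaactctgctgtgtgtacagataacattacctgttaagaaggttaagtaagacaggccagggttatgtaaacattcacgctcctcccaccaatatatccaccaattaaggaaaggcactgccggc
Cyp4b1: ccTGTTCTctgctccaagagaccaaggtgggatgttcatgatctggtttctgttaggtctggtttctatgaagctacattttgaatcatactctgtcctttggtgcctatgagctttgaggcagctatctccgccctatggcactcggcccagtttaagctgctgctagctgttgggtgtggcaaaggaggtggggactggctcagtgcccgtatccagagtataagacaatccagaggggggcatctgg

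The half-site was searched as AGAACA on both strands, so as TGTTCT too, and stood in 1 of the 7 members, beginning at position -248 of Cyp4b1, where -1 is the base before the start. Over all genes of the table, 18.2% of 27025 had it in the same window, so a share of 1 in 7 is not set apart from the background. The full element, AGAACA followed by 3 bases of any kind and TGTTCT, contains 2 half-sites and was in 0 of the 7 members and in 3 of all genes. The letters TATAAA, searched on the strand of the gene, were found at -31 in Kap and at -31 in Cyp2e1, and in 8.94% of all genes. These are matches of letters in a short window only. The GC content of the windows ran from 40.4% in Slco1a1 to 80.0% in Odc1.

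Expression values were FPKM, fragments scaled to transcript length and library total, which allow levels of genes to be set side by side per length. The FPKM sum of a library was 481937 to 541844, and its depth relative to the others, read from the smallest steps among low values, 0.924 to 1.105. The busulfan libraries differed among themselves: over all genes, the leading principal component (41.8% of the variance) gave busulfan 1 and 2 scores of -40.4 and -47.3, but busulfan 3 had 10.5, within the 1.9 to 16.9 of the remaining 9 libraries. Busulfan 3 further had lower values for longer transcripts (rank correlation with length -0.508, where the rest had -0.066 to 0.298). It also had higher values for transcripts richer in GC (rank correlation 0.354, where the rest had -0.29 to 0.134). Because 1 of 3 busulfan libraries stood apart, the tests of the members are given with and without it. Tests of other genes are given without it only in part. The fit without it was read with the values already known and holds only 2 busulfan libraries.

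In kidneys given busulfan alone, all 9 genes were low in libraries 1 and 2 and near the control level in library 3. In kidneys given busulfan plus L.J. and in those given L.J. alone, every library was within 0.53 of the control mean on the log2(FPKM + 1) scale for 8 of the genes, while Cyp7b1 varied widely. Set against the mean of the 3 control libraries on the log2(FPKM + 1) scale, the median of the 9 members was -2.01, -2.24 and -0.03 in the busulfan libraries and lay between -0.16 and 0.12 in each of the other 9. For 9 of 9 members busulfan 1 and 2 were the 2 lowest of the 12 libraries, as they were for 8.48% of the 12281 genes tested. The members were chosen with earlier results of these data known, so this contrast and those below are not an independent test of the set. In a bulk sample, fewer cells of a type and less RNA per cell cannot be told apart.

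**Figure D1:**
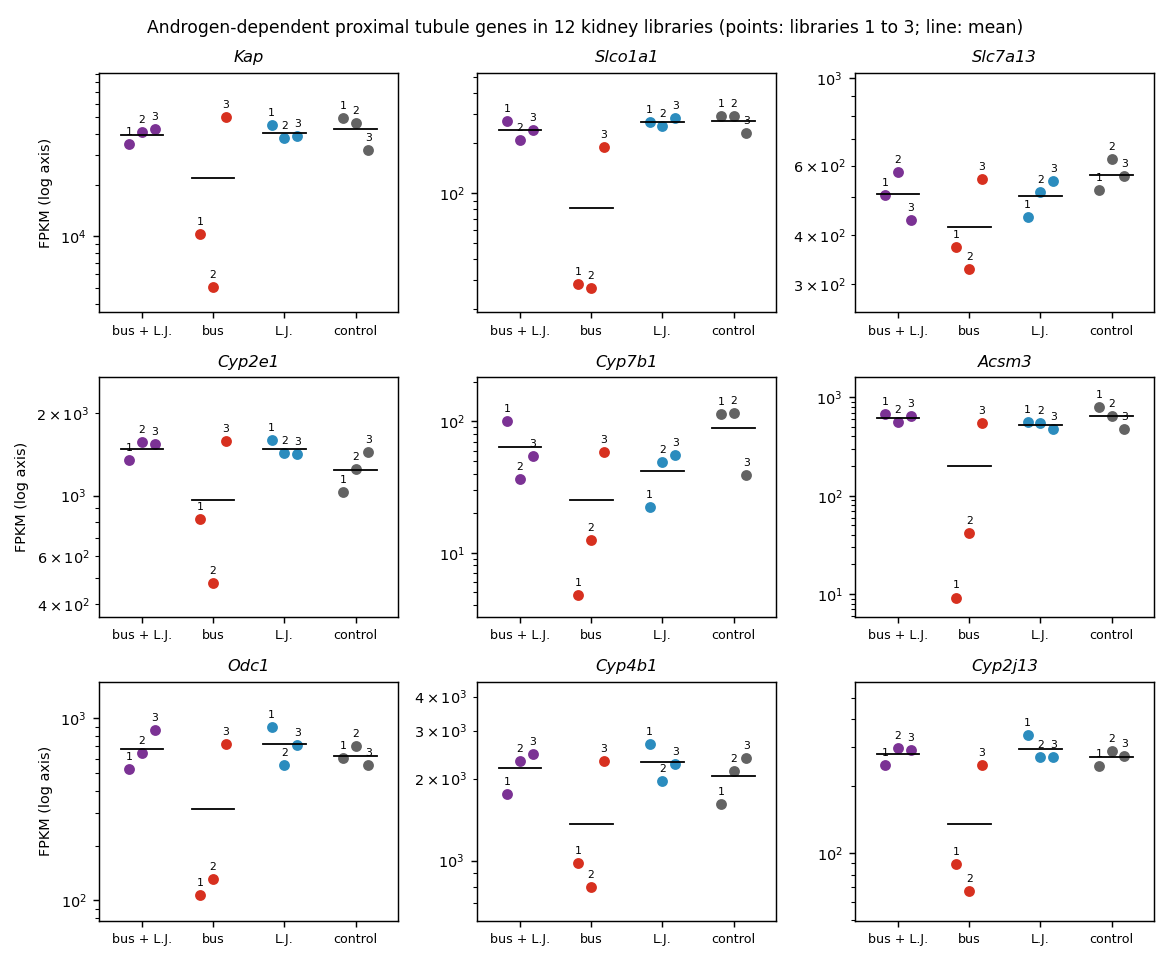
FPKM of each member on a log axis in the 12 libraries, grouped left to right as busulfan + L.J. (bus + L.J.), busulfan (bus), L.J. and control; each point is a library with its replicate number and the line is the mean of 3. In every panel busulfan 1 and 2 are the lowest points and busulfan 3 sits among the libraries of the other groups, except just above them for Kap and just under them for Slco1a1.

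Kap encodes the kidney androgen-regulated protein, a small protein made in the proximal tubule and a classical androgen target. It measured 34873, 40986 and 42454 FPKM in busulfan plus L.J. libraries, 10398, 5031 and 50482 in busulfan libraries, 45290, 37585 and 38952 in L.J. libraries, and 49389, 46405 and 32135 in control libraries. Busulfan 1 and 2 were far below all others, and busulfan 3 was the highest of the 12. Kap was the most abundant gene of the table in 10 libraries and ranked second in busulfan 1 and 2. It made up 2.13%, 1.03% and 9.32% of the FPKM sum in the busulfan libraries and 6.61% to 9.73% in the other 9. With Kap left out of the sum used for scaling, the median busulfan difference of the members was -1.60 on the log2 scale in place of -1.51.

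The transporters were Slco1a1 and Slc7a13. Slco1a1 encodes an organic anion transporting polypeptide of the apical membrane that carries steroid conjugates. It measured 272, 208 and 241 FPKM in busulfan plus L.J. libraries, 28.4, 27.0 and 190 in busulfan libraries, 269, 253 and 284 in L.J. libraries, and 292, 292 and 229 in control libraries. This was the one member whose 3 busulfan libraries all lay below the 3 controls, and busulfan 3 was at 70.2% of the control mean. Slc7a13 encodes an aspartate and glutamate transporter of the late proximal tubule that pairs with the Slc3a1 protein. It measured 506, 580 and 436 FPKM in busulfan plus L.J. libraries, 372, 328 and 555 in busulfan libraries, 445, 515 and 547 in L.J. libraries, and 519, 623 and 565 in control libraries. Busulfan 1 and 2 were again the lowest, but nearer to control than for most members, at 65.4% and 57.7% of the control mean.

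The next group are the cytochrome P450 genes. Cyp2e1, whose enzyme oxidizes ethanol and other small molecules, measured 1345, 1574 and 1543 FPKM in busulfan plus L.J. libraries, 819, 479 and 1583 in busulfan libraries, 1593, 1429 and 1418 in L.J. libraries, and 1032, 1246 and 1443 in control libraries. Cyp4b1, a P450 that activates several foreign compounds, measured 1758, 2324 and 2460 FPKM in busulfan plus L.J. libraries, 983, 799 and 2323 in busulfan libraries, 2669, 1964 and 2254 in L.J. libraries, and 1613, 2137 and 2370 in control libraries. Both had busulfan 3 within or above the control range, and busulfan 1 and 2 between 38.6% and 66.0% of the control mean. Cyp2j13 belongs to a family of P450s that form epoxides from arachidonic acid. It measured 248, 298 and 291 FPKM in busulfan plus L.J. libraries, 88.9, 67.2 and 250 in busulfan libraries, 340, 270 and 270 in L.J. libraries, and 246, 288 and 274 in control libraries. Its control libraries had the smallest log2 SD of the members, 0.12, and busulfan 1 and 2 stood at 33.0% and 25.0% of their mean.

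Cyp7b1 encodes the hydroxylase of oxysterols and of several steroids. It measured 101, 36.2 and 54.9 FPKM in busulfan plus L.J. libraries, 4.79, 12.4 and 58.6 in busulfan libraries, 22.2, 48.9 and 55.5 in L.J. libraries, and 114, 115 and 39.1 in control libraries. Busulfan 1 and 2 were below all others, yet the gene was also the most variable member outside the busulfan group. Its highest L.J. or control library was 5.19 times its lowest, against 1.28 to 1.68 times for the other 8 members. Control 3 and L.J. 1 were the low ones.

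The remaining enzymes act on fatty acids and on polyamines. Acsm3 encodes a mitochondrial acyl-CoA synthetase for medium-chain fatty acids. It measured 670, 555 and 645 FPKM in busulfan plus L.J. libraries, 9.24, 41.9 and 544 in busulfan libraries, 562, 547 and 479 in L.J. libraries, and 796, 650 and 474 in control libraries. Its control mean was 69.3 times the level of busulfan 1 and 15.3 times that of busulfan 2, and busulfan 3 lay inside the control range. Odc1 encodes ornithine decarboxylase, the first and regulated enzyme of polyamine synthesis, long known to be induced by androgens in the mouse kidney. It measured 523, 642 and 860 FPKM in busulfan plus L.J. libraries, 107, 130 and 720 in busulfan libraries, 893, 552 and 710 in L.J. libraries, and 607, 705 and 556 in control libraries. Busulfan 1 and 2 were at 17.2% and 20.9% of the control mean and busulfan 3 at 115%.

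The order of the members differed between the low busulfan libraries. Control mean over library ran from 1.52 times for Cyp2e1 to 69.3 times for Acsm3 in busulfan 1, and from 1.73 times for Slc7a13 to 15.3 times for Acsm3 in busulfan 2. Kap and Cyp2e1 were lower in busulfan 2 than in busulfan 1, Acsm3 and Cyp7b1 were lower in busulfan 1, and Slco1a1 was nearly equal in both. The log2 SD within a group had a median over the members of 0.20 in busulfan plus L.J., 1.51 in busulfan, 0.15 in L.J. and 0.24 in control, against 0.14, 0.22, 0.11 and 0.10 over all genes tested in the same order of groups. The spread of the members in the busulfan group ran from 0.40 for Slc7a13 to 2.90 for Acsm3.

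The comparison of busulfan with control asked whether the drug lowered these genes. None of the 9 passed the threshold, an adjusted p under 0.05 with limma and Benjamini-Hochberg adjustment over 12281 genes, against 1.44% of all genes in either direction and 0.717% lower. The fitted difference was negative for 9 of 9, with a median of -1.51 on the log2 scale against 0.08 over all genes, and 7 of 9 had an unadjusted p under 0.05, against 22.7% of all genes and 7.15% lower. Slco1a1 came nearest, with a difference of -2.32 (SE 0.55, limma adjusted p = 0.0567). Its groups did not overlap, as for 7.33% of all genes in that direction. After quantile normalization it was called, with a difference of -2.44 (limma adjusted p = 0.0418), the one member that this scaling brought past the threshold in this comparison.

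Acsm3 had the most negative difference, -3.34 (SE 1.00, limma adjusted p = 0.094), and an interval of -5.53 to -1.14 at the 95% level. Cyp2j13 differed by -1.22 (SE 0.36, limma adjusted p = 0.0882) and Cyp7b1 by -2.29 (SE 0.74, limma adjusted p = 0.111). Odc1 differed by -1.51 (limma adjusted p = 0.141), Slc7a13 by -0.48 (0.16) and Kap by -1.60 (0.175). For Cyp4b1 and Cyp2e1 the differences of -0.72 and -0.53 had limma adjusted p-values of 0.226 and 0.35, and their intervals included 0. Without busulfan 3, 9 of 9 members were called lower, against 8.12% of all genes in that direction and 32.5% in either. The differences then ran from -0.70 for Slc7a13 to -4.90 for Acsm3, with a median of -2.38 and limma adjusted p-values of 2.9e-07 to 0.00584.

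Setting busulfan plus L.J. against busulfan asked whether the added agent went with higher levels. Again 0 of 9 members were called, against 3.24% of all genes and 1.18% higher, while 8 of 9 had an unadjusted p under 0.05, against 23.4% of all genes and 7.58% higher. The difference was positive for 9 of 9, with a median of 1.51 against -0.09 over all genes. Acsm3 had 3.32 (SE 1.00, limma adjusted p = 0.0845) and Slco1a1 2.15 (SE 0.55, limma adjusted p = 0.0558). For these 2 genes all 3 busulfan plus L.J. libraries lay above all 3 busulfan libraries, as for 7.14% of all genes in that direction. Cyp2j13 had 1.27 (SE 0.36, limma adjusted p = 0.0688) and Slc7a13 the smallest difference, 0.30 (SE 0.18, limma adjusted p = 0.335). Quantile normalization brought Slco1a1 and Cyp2j13 past the threshold, with limma adjusted p-values of 0.0434 and 0.0454.

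Without busulfan 3 the same comparison called 9 of 9 members higher, against 7.98% of all genes in that direction and 31.6% in either. Their differences ran from 0.53 for Slc7a13 to 4.89 for Acsm3, with a median of 2.44. This comparison shares the busulfan libraries with the one before it, so the low values of busulfan 1 and 2 enter both. The interaction, the busulfan difference with L.J. minus the busulfan difference without it, tested whether the busulfan difference depended on L.J. It was positive for 9 of 9 members, from 0.48 for Slc7a13 to 3.57 for Acsm3, and called for 0 of 9 against 0.0163% of all genes, with limma adjusted p-values of 0.34 to 0.695. An unadjusted p under 0.05 was seen for 4 of 9, against 11.7% of all genes and 4.42% higher. Without busulfan 3 it was called higher for 9 of 9, against 4.12% of all genes in that direction and 12.1% in either.

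**Figure D2:**
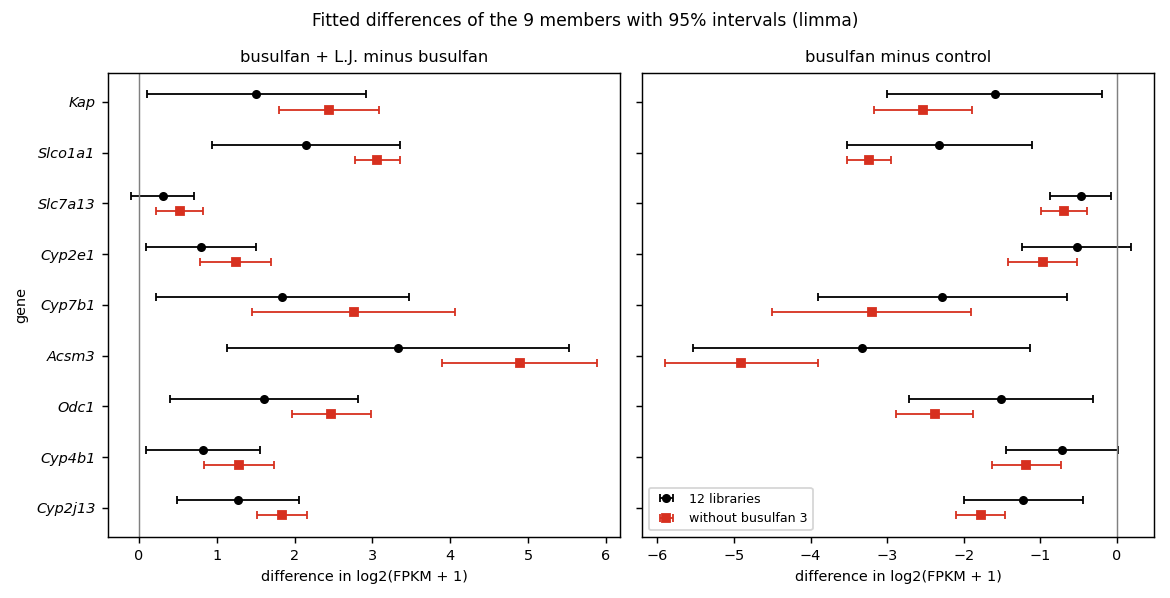
Fitted differences in log2(FPKM + 1) with 95% intervals for busulfan + L.J. minus busulfan (left) and busulfan minus control (right), from all 12 libraries (black circles) and without busulfan 3 (red squares). Differences are positive on the left and negative on the right for all 9 members, and without busulfan 3 every interval leaves out 0.

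L.J. alone did not separate from control for any member. The differences ran from -1.01 for Cyp7b1 to 0.27 for Cyp2e1, with a median of -0.003, 0 of 9 called against 0% of all genes, and limma adjusted p-values of 0.999 throughout. No member had an unadjusted p under 0.05, against 2.74% of all genes, and the groups overlapped for all 9, whereas the L.J. libraries lay all below control for 8.22% of all genes and all above for 4.74%. The 95% intervals remain wide, at -1.21 to 1.21 for Slco1a1, -2.44 to 1.95 for Acsm3 and -0.58 to 0.22 for Slc7a13. They come from a fit in which the 4 groups share an estimate of the spread, which takes in the busulfan libraries. The log2 SD of Slco1a1 was 0.08 in L.J. and 0.20 in control, against 1.58 in busulfan. For Acsm3 these were 0.12 and 0.38, against 2.90. The intervals give what this fit does not exclude, not what the L.J. and control libraries alone could show. Busulfan plus L.J. against control gave -0.44 for Cyp7b1 to 0.27 for Cyp2e1, a median of -0.01, and 0 of 9 called against 0.00814% of all genes. Busulfan plus L.J. against L.J. alone gave -0.17 for Slco1a1 to 0.57 for Cyp7b1, a median of -0.04, and 0 of 9 called against 0% of all genes. In both, the limma adjusted p was 1 for every member and 0 of 9 had an unadjusted p under 0.05, against 2.87% of all genes for control and 1.95% for L.J. alone.

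Other genes known to be higher in male mouse kidney were mostly low in the same libraries. Of 13, 12 had a negative busulfan difference, with a median of -1.07 against 0.08 over all genes. Of them 1 was called lower, against 0.717% of all genes. The called gene was Atp11a, a phospholipid flippase, at 387, 337 and 341 FPKM in busulfan plus L.J. libraries, 93.8, 91.7 and 267 in busulfan libraries, 344, 331 and 343 in L.J. libraries, and 345, 357 and 358 in control libraries (-1.41, limma adjusted p = 0.0497). In busulfan plus L.J. against busulfan, 11 of the 13 had a positive difference, with a median of 1.16 against -0.09 over all genes. Of these, 2 were called higher, against 1.18% of all genes. They were Atp11a and the organic anion transporter gene Slc22a30 (1.32, limma adjusted p = 0.0441). These calls are fragile: each of the 3 was kept under 5 of 20 alternatives and lost under 15, among them the replicate block, the length and GC correction, only the groups compared, and every library left out but busulfan 3, with limma adjusted p-values of up to 0.246 for Atp11a in busulfan against control and 0.273 in the other comparison. The glucuronosyltransferase gene Ugt2b38 measured 285, 245 and 981 FPKM in busulfan libraries, against 1180, 1113 and 829 in control libraries. Without busulfan 3, 11 of the 13 were called lower in busulfan against control, where 8.12% of all genes were. In that fit 11 were called higher in busulfan plus L.J. against busulfan, where 7.98% of all genes were.

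Most genes known to be higher in female mouse kidney were high in the same 2 libraries. The female-biased amino acid transporter gene Slc7a12 measured 1.67, 1.03 and 1.23 FPKM in busulfan plus L.J. libraries, 22.1, 34.5 and 1.30 in busulfan libraries, 1.15, 1.91 and 1.74 in L.J. libraries, and 2.18, 1.32 and 1.53 in control libraries. Cyp4a14, a fatty acid hydroxylase, measured 1.61, 1.62 and 1.91 FPKM in busulfan plus L.J. libraries, 121, 151 and 3.98 in busulfan libraries, 1.16, 1.40 and 2.01 in L.J. libraries, and 2.04, 2.74 and 1.38 in control libraries. Busulfan 3 was near control for Slc7a12 and above every other library but busulfan 1 and 2 for Cyp4a14. Of 6 listed, 5 passed the filter on low values and 0 were called in busulfan against control, with limma adjusted p-values of 0.0602 for Cyp4a14 and 0.118 for Slc7a12. Cyp4a14 fell in busulfan plus L.J. against busulfan, by 4.06 on the log2 scale (limma adjusted p = 0.0471), a call kept under 4 of 20 alternatives. The organic anion transporter gene Slc22a19 went against its list, at 10.96, 27.6 and 40.9 FPKM in busulfan libraries, against 83.0, 60.2 and 30.5 in control libraries. Without busulfan 3, 4 of the 5 were called higher and Slc22a19 lower in busulfan against control. Of all 12281 genes, 2992 were called higher and 8.12% lower in that fit.

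**Figure D3:**
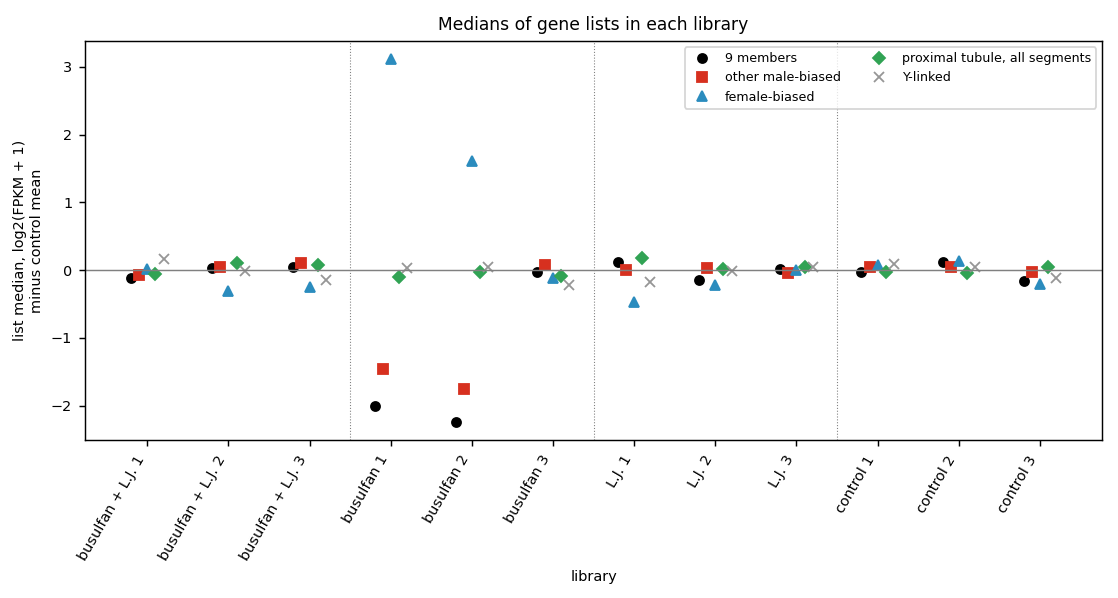
Median of each gene list per library, as log2(FPKM + 1) minus the mean of the 3 control libraries, with groups from left to right busulfan + L.J., busulfan, L.J. and control. In busulfan 1 and 2 the members and the other male-biased genes are low and the female-biased genes high, while genes of all proximal tubule segments and Y-linked genes stay near 0.

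Among genes of androgen synthesis and inactivation, 8 of 14 listed passed the filter. In busulfan against control 1 was called lower, against 0.717% of all genes. Without busulfan 3, 4 were called lower, where 8.12% of all genes were. The gene called with all libraries was Akr1c14, an aldo-keto reductase that interconverts dihydrotestosterone and a weaker androgen. Its busulfan difference was -2.38 (limma adjusted p = 0.0364). It was the single listed gene called higher in busulfan plus L.J. against busulfan (2.16, limma adjusted p = 0.034). The first call was kept under 6 of 20 alternatives, with limma adjusted p-values of up to 0.22, and the second under 5, and both were lost with only the groups compared, without busulfan 2 and without any 1 control library. It measured 207, 166 and 175 FPKM in busulfan plus L.J. libraries, 20.8, 30.4 and 100 in busulfan libraries, 101, 107 and 129 in L.J. libraries, and 192, 229 and 220 in control libraries. The L.J. libraries were also all below the controls, with a difference of -0.93 (SE 0.41, limma adjusted p = 0.999). Hsd17b11, a hydroxysteroid dehydrogenase gene, measured 107, 101 and 349 FPKM in busulfan libraries, against 318, 339 and 318 in control libraries. Its limma adjusted p was 0.124, and 3.9e-05 without busulfan 3.

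Partners of single members did not share the pattern throughout. Without busulfan 3, 2992 of all 12281 genes were called higher and 8.12% lower in busulfan against control. The counts of lists in that fit, here and below, are to be read against these shares. Of 10 other polyamine genes, 9 had a positive busulfan difference, with a median of 0.09 against 0.08 over all genes, and 0 were called. Without busulfan 3, 6 were positive and 4 negative, with a median of 0.12 against 0.15 over all genes. In that fit 2 were called higher. Odc1 itself was low in busulfan 1 and 2. Azin2, an antizyme inhibitor, measured 3.48, 3.93 and 1.82 FPKM in busulfan libraries, against 1.47, 1.69 and 1.54 in control libraries. The spermine synthase gene Sms fell in busulfan plus L.J. against busulfan by 0.56 on the log2 scale (limma adjusted p = 0.0463), a call kept under 3 of 20 alternatives. In the Acsm family 3 of 4 other genes passed the filter and 0 were called (2 lower without busulfan 3). Acsm2 measured 810, 488 and 1126 FPKM in busulfan libraries, against 1298, 1308 and 1212 in control libraries, and Acsm5 differed by -0.001.

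Cyp2j5, the most abundant of the other Cyp2j genes, measured 711, 653 and 846 FPKM in busulfan libraries, against 1033, 1009 and 1003 in control libraries (limma adjusted p = 0.0581), and 0 of the 4 tested were called (1 higher and 1 lower without busulfan 3). Genes of this family resemble one another, and how reads shared between them were counted is not given in the sources used here. Of the oxysterol partners of Cyp7b1, 3 of 5 passed the filter, each with a positive busulfan difference and 0 called (1 higher without busulfan 3). Slc3a1, which encodes the partner subunit of the Slc7a13 transporter, measured 204, 232 and 218 FPKM in busulfan libraries, against 259, 252 and 244 in control libraries. Slc7a9, an amino acid transporter gene of the Slc7 family, measured 123, 98.8 and 66.4 FPKM in busulfan libraries, against 57.5, 58.9 and 66.8 in control libraries. Its limma adjusted p was 0.114, and 0.00312 without busulfan 3. Of 8 transporter partners 0 were called (4 higher and 1 lower without busulfan 3). Among 11 hormone receptors and tubule regulators 0 were called (1 higher and 4 lower without busulfan 3).

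Markers of the proximal tubule were present in every library. The summed FPKM of 10 genes of all its segments ran from 7472 to 9160 in busulfan plus L.J. libraries, from 6994 to 8740 in busulfan libraries, from 8317 to 8766 in L.J. libraries and from 7709 to 8483 in control libraries, with 0 of 10 called in busulfan against control, and 2 higher and 2 lower without busulfan 3. The sum of 6 late-segment genes other than the members was 1087, 849 and 4344 FPKM in the busulfan libraries, against 2968 to 3622 FPKM in control libraries. Acy3, an aminoacylase, made up most of that sum, and without it the other 5 genes summed to 157, 197 and 248 FPKM in the busulfan libraries, against 233 to 307 FPKM in control libraries. Of the 6, 0 were called in busulfan against control. Without busulfan 3, Acy3, the organic anion transporter gene Slc22a7 and the monocarboxylate transporter gene Slc5a8 were called lower, while Slc5a1, Slc22a13 and Slc6a18 were not called, with differences of 0.02, -0.41 and 0.36. Their part in the members' values was not tested.

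Markers of other cell types differed in part between the libraries. Their counts without busulfan 3 stand beside 2992 of all 12281 genes called higher in busulfan against control in that fit. Collecting duct markers summed to 200, 232 and 115 FPKM in the busulfan libraries, against 114 to 126 FPKM in control libraries, with 0 of 6 called (4 higher without busulfan 3). Leukocyte markers summed to 100, 126 and 35.8 FPKM in the busulfan libraries, against 29.2 to 39.1 FPKM in control libraries. S100a8 and S100a9, neutrophil genes, carried the difference, since without them the other 5 genes summed to 38.9, 30.4 and 30.2 FPKM in busulfan libraries, against 25.9 to 37.1 FPKM in control libraries. Of the 6 tested, 0 were called in busulfan against control. Without busulfan 3, S100a8 and S100a9 were called higher and the other 4 were not called, among them the general leukocyte gene Ptprc, with a difference of -0.15. With all libraries, S100a9 and S100a8 fell in busulfan plus L.J. against busulfan (limma adjusted p = 0.0331 and 0.0445), calls kept under 7 and 5 of 20 alternatives. Distal convoluted tubule markers summed to 324, 238 and 214 FPKM in the busulfan libraries, against 166 to 212 FPKM in control libraries, with 0 of 3 called (2 higher without busulfan 3). The tubular injury list summed to 461, 672 and 397 FPKM in busulfan libraries, against 348 to 413 FPKM in control libraries. It summed to 699, 411 and 397 FPKM in busulfan plus L.J. libraries and to 416 to 500 FPKM in L.J. libraries. The highest sum was thus in busulfan plus L.J. 1. Of the 6 tested, 0 were called in busulfan against control (1 higher without busulfan 3, Cdkn1a). Thick ascending limb markers summed to 1154, 1800 and 952 FPKM in busulfan libraries, against 819 to 1314 FPKM in control libraries, with 0 of 4 called (1 higher without busulfan 3). Podocyte markers summed to 103, 99.4 and 57.5 FPKM in busulfan libraries, against 60.2 to 86.1 FPKM in control libraries. Of these 4 markers, and of 4 of endothelium and 4 of fat, 0 were called with or without busulfan 3, and of 6 early proximal tubule markers 0 were called (2 higher and 1 lower without busulfan 3). Liver markers summed to 13.3 to 16.8 FPKM in busulfan plus L.J. libraries, 43.6 to 65.9 in busulfan libraries, 10.5 to 13.9 in L.J. libraries and 32.0 to 70.6 in control libraries. Of the 6, 4 were called lower in busulfan plus L.J. against busulfan, where 3.24% of all genes were called in either direction. Without busulfan 3 it was 5, against 31.6%. Their median difference was -1.475 in this comparison with all libraries and -1.559 in L.J. against control. In L.J. against control 0 were called, as for all genes, and 5 of the 6 had an unadjusted p under 0.05, against 2.74% of all genes. In busulfan against control 0 were called. Of 6 adrenal cortex markers, 5 stayed under 1 FPKM in every library. The 1 tested was not called with all libraries. Without busulfan 3 it was called higher in busulfan against control (0.48) and lower in busulfan plus L.J. against busulfan (-0.46). The Y-linked gene Ddx3y was detected in every library, at 15.03, 13.9 and 8.28 FPKM in busulfan libraries, against 15.6, 16.5 and 14.2 in control libraries. What part any of these markers had in the members' values was not tested.

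**Figure D4:**
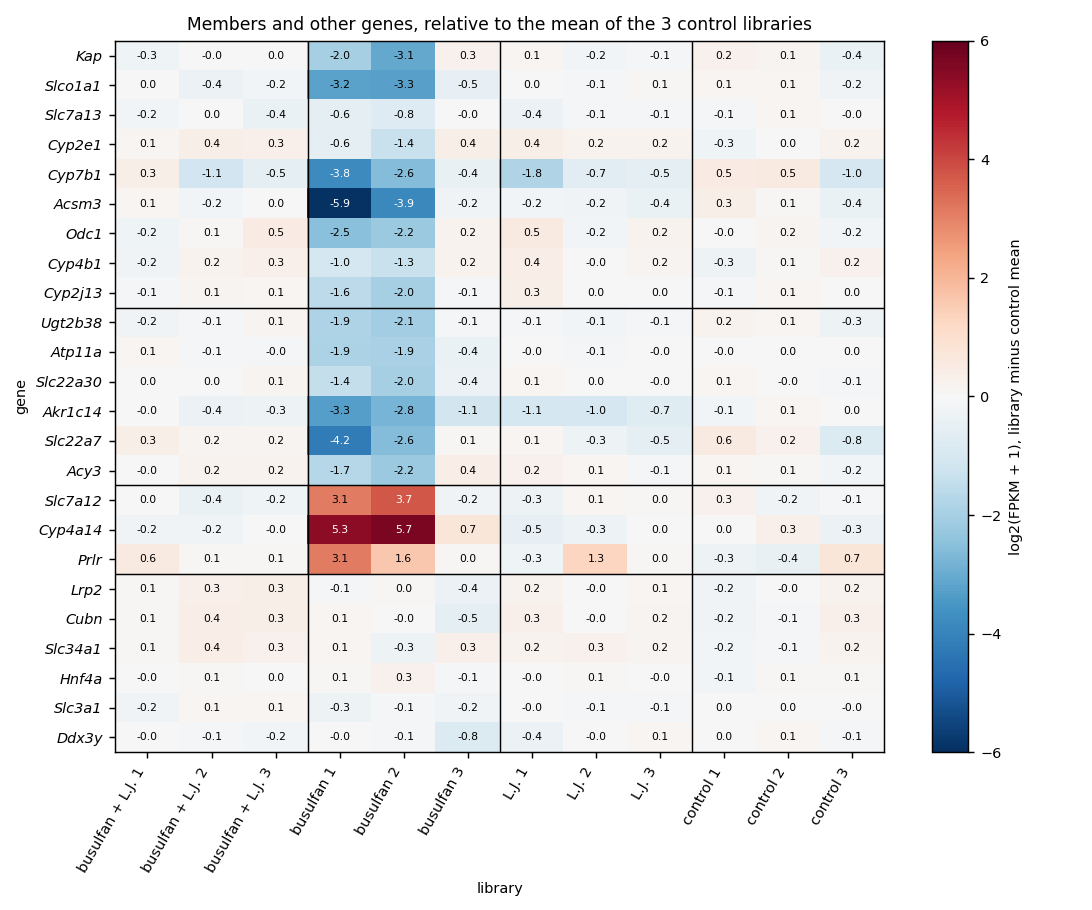
Log2(FPKM + 1) of each library minus the control mean for the 9 members (top block), other male-biased, steroid or late-segment genes (second block), female-biased genes (the block under it) and general proximal tubule genes with Ddx3y (bottom block). The genes below the members were picked from their lists with values known, and listed genes left out do not all follow the blocks shown. Without busulfan 3, those left out include the female-biased Slc22a19 (-1.56 in busulfan against control) and the male-biased Cyp2d9 (0.63). They also include the proximal tubule genes Aqp1 (0.78), Slc13a3 (0.41), Acsm2 (-1.02) and Pdzk1 (-0.45). Columns run from busulfan + L.J. to control, and busulfan 1 and 2 are the columns that differ from the rest.

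The members' median profile over the 12 libraries was compared with 8345 other genes that averaged at least 5 FPKM, by the root mean square difference of control-centred log2 values. The 10 nearest genes were Ugt2b38 (0.13), Selenop (0.16), Cd36 (0.17), Atp11a (0.18), Ces1f (0.19), Acy3 (0.20), Ace (0.21), Snx31 (0.22), Slc22a30 (0.23) and Amacr (0.23). The members' own distances from this profile ran from 0.18 for Cyp2j13 to 1.24 for Acsm3. Of the 8345 other genes, 4 lay closer to the profile than Cyp2j13, 4460 closer than Cyp7b1 and 7997 closer than Acsm3. The profile is thus not shared closely by all 9 members. Selenop, which encodes a selenium-carrying plasma protein, measured 469, 479 and 1541 FPKM in busulfan libraries and averaged 1714 ± 252 FPKM in control libraries (SD, n = 3). Ace, the gene of angiotensin-converting enzyme, measured 22.2, 25.6 and 116 FPKM in busulfan libraries and averaged 97.3 ± 10.0 FPKM in control libraries (SD, n = 3). Since the genes were chosen for this likeness, their levels carry no test.

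Transcript lengths of the members ran from 707 bp for Kap to 4374 bp for Cyp2j13. In busulfan 3, the library with the length trend, Kap stood at 118% of the control mean and Slco1a1, with 3904 bp, at 70.2%. The members did not line up by length there. Cyp2j13, the longest, stood at 92.7% and Acsm3, with 3295 bp, at 85.0%. The lowest was Cyp7b1, with 2166 bp, at 65.5%. With length and GC trends removed within each library, the members' median busulfan difference was -1.64 and 0 of 9 were called. The part of length in the level of any member was not tested beyond that correction.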

How the data were processed

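RNA of frozen kidneys was extracted with Trizol and a column kit and sequenced with standard Illumina libraries, per the labels' protocols. The authors deposited 1 table of FPKM values for 12 libraries, rounded to 2 decimals, per the file headers. Bowtie 0.12.2 and mm10 are named in the submitters' processing notes. The counting tool, annotation and strand mode were not given in the sources used here. Of 21004 rows, 1 repeated symbol was dropped and 37 symbols stored as dates or numbers were restored from gene identifiers. FPKM are scaled to each library's total, so absolute depth is unknown.

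Genes with at least 1 FPKM in at least 3 libraries (12281) were fitted as log2(FPKM + 1), a scale that understates changes of low genes, with limma 3.58.1 (R 4.3.3, trend option, 1 mean per group, two-sided, Benjamini-Hochberg adjustment over all tested genes, adjusted p under 0.05). All 9 members passed the filter. Alternatives were another pseudocount, no filter, quantile normalization, scaling without Kap, only the groups compared, weights per library, a replicate block, a length and GC correction, and each library left out. The members and gene lists were chosen with earlier results of these data known. The rule for named genes was at most 3 of each list, those with the smallest p in busulfan against control, plus Akr1c14, Slc7a12, Ddx3y and the 10 genes nearest the members' median profile. Several lists are given by counts alone or by fewer genes, and which of these genes to describe was decided after their values were seen. Ptprc, Slc5a1, Slc22a13 and Slc6a18 fall outside the rule. A further listed gene and its list are not reported here. Coordinates and promoters came from RefSeq (GRCm38.p6), lengths and GC content from GENCODE. Tables and plots used Python 3.11.15, pandas 2.3.3 and matplotlib 3.10.9.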

Additional observations from a re-analysis of the deposited data

How the results depend on the processing

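The direction of each member in busulfan against control, in busulfan plus L.J. against busulfan and in the interaction was the same under every alternative run. The number of members called was not. In busulfan against control it was 0, and 1 with quantile normalization, 9 with library weights, and 0 to 9 when a library was left out. In busulfan plus L.J. against busulfan it was 0, and 2 with quantile normalization, 9 with library weights, and 0 to 9 when a library was left out. For the interaction it was 0, and 9 with library weights and 0 to 9 when a library was left out. The 9 came without busulfan 3. The weights were 11 for busulfan 1 and 0.0941 for busulfan 3, and their iteration stopped before it converged.

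With a library left out, the members' median ran from -2.38 to -0.87 in busulfan against control, from 0.89 to 2.44 in busulfan plus L.J. against busulfan, from -0.17 to 0.015 in busulfan plus L.J. against control and from -0.10 to 0.07 in busulfan plus L.J. against L.J. In the comparisons without the busulfan group, 0 members were called under any alternative, and members near 0 changed sign in 10, 10 and 19 of 180 values each.

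Over all genes, 177 were called in busulfan against control (89 higher), and 55 with no filter, 503 with quantile normalization, 217 with scaling without Kap (31 higher), 0 with only the groups compared, 7312 with library weights, 10 with the length and GC correction, and 0 to 3989 with a library left out. In busulfan plus L.J. against busulfan these were 398 (145 higher), 150, 656, 344 (270 higher), 2, 7311, 26 and 1 to 3880. For the interaction 2 genes were called, and 4145 with library weights and 0 to 1489 with a library left out. Equal replicate numbers showed no sign of pairing, since deviations of same-numbered libraries correlated between -0.239 and 0.081 in 18 pairs. With so few libraries a group, these correlations cannot exclude a pairing. With the replicate number as a block, 0 members were called in any comparison, and over all genes 11 in busulfan against control and 4 in busulfan plus L.J. against busulfan.

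With 3 libraries a group and 1 busulfan library apart, the intervals of the members are wide. FPKM without counts give no counting error.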
